A study of Mus musculus with 4 samples.

Results

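Keratin-positive, Vim-high cells of tumours grown from the mouse pancreatic cancer line KPC-3403 are described here. They were picked by a rule on measured RNA. A barcode had to hold at least 500 UMIs (unique molecular identifiers, the counted RNA molecules) and 250 genes, with at most 20% of UMIs from mitochondrial genes. Of every 10000 UMIs, at least 10 had to come from Krt7, Krt8, Krt18 and Krt19 and at least 20 from Vim. Fewer than 5 could come from the secretory genes Tff1, Tff2 and Agr2, and fewer than 20 from the collagens Col1a1 and Col3a1. No UMI of the leukocyte gene Ptprc or of the mesothelial genes Upk3b, Upk1b and Nkain4 was allowed. The rule found 406 cells among 3792 filtered KPC-3403 cells and 6020 filtered cells in the series. These 406 are called the members below.

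The series holds 4 droplet libraries of 10x 5' chemistry, each from untreated orthotopic tumours in C57BL/6J mice, dissociated on day 13 after implantation. KPC lines derive from a genetically engineered mouse model of pancreatic ductal adenocarcinoma. Each of the lines KPC-3403 and KPC-4545 gave 1 whole library, an unsorted suspension, and 1 enriched library, sorted for cells without CD45, CD31, EPCAM and TER119 in order to enrich fibroblasts. Whether the libraries came from separate animals, and whether a line is 1 clone, is not given in the sources used here. With 1 library per line and preparation, there are no replicates. P-values rest on the spread between these libraries that the line and preparation terms leave. Because the sort removed cells with EPCAM on their surface, tumour cells of the enriched libraries are those that escaped it.

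Keratins 7, 8, 18 and 19 are the intermediate filament proteins of simple duct epithelium, and vimentin is that of mesenchymal cells. Carcinoma cells that carry both are commonly described as having passed part of an epithelial-to-mesenchymal transition, in which junctions loosen and matrix and motility genes rise. In the pancreas, keratin 19 marks ducts and duct-derived tumours, while trefoil factors and Agr2 belong to mucus-secreting, gastric-type epithelium.

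The enriched library gave 289 members of 2575 filtered cells, or 11.2% (exact Clopper-Pearson 95% interval 10.0 to 12.5%). The whole library gave 117 of 1217, or 9.61% (8.02 to 11.4%). The sort and the mixture of other cells set both shares, and the intervals cover counting error only. Among cells that passed the keratin limit, with collagen, Ptprc and mesothelial limits applied alike, members were 289 of 621 in enriched (46.5%, 42.6 to 50.6%) and 117 of 361 in whole (32.4%, 27.6 to 37.5%). The rest of those cells exceeded the trefoil limit (232 in enriched and 147 in whole) or fell below the Vim limit (100 and 97). Cells of KPC-4545 that passed the same rule numbered 742 of 1692 in enriched (43.9%, 41.5 to 46.3%) and 30 of 536 in whole (5.60%, 3.81 to 7.89%). With no UMI of Msln, Wt1, Lrrn4, Gpm6a or Muc16 allowed, these shares were 9.81% and 2.99%, and the members' shares 4.93% and 5.92%.

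The 4 libraries held 5746733 to 51450719 UMIs in all, and the 880 to 3482 barcodes of at least 500 UMIs per library were filtered to 536 to 2575 cells. The members' depth differed widely between preparations. Their median was 15479 UMIs in enriched (517 to 86169) and 1690 in whole (518 to 114918), and 56 of the 117 whole members had under 1500 UMIs, against 15 of 289. Sums over the whole libraries therefore rest on few cells. The 10 deepest members held 50.5% of the UMIs in whole and 12.0% in enriched, and in KPC-4545 the 10 deepest gated cells held 81.7% in whole and 3.86% in enriched. Scrublet called 1 enriched member and 0 whole members a doublet.

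Libraries also shared cell barcodes. The enriched KPC-4545 and whole KPC-3403 libraries shared 139 filtered barcodes, while other pairs shared 6 to 11. Of the 1692 filtered barcodes of enriched KPC-4545, 132 held more UMIs in whole KPC-3403, whether or not they passed the filter there. Among gated cells, 20 in enriched KPC-4545, 0 in whole KPC-4545, 6 in enriched KPC-3403 and 4 in whole KPC-3403 had more UMIs under the same barcode in another library. Without them the members' shares were 11.1% and 9.40%. Free RNA, read from barcodes with at most 100 UMIs, carried 35.0 keratin, 19.8 Vim and 7.77 trefoil UMIs per 10000 in whole KPC-3403. In enriched KPC-3403 it carried 8.88, 34.1 and 2.23. Thus free RNA lay near or above the keratin and Vim limits, and its part in calling members of low depth was not tested.

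The limits cut through continuous distributions. In enriched, the member nearest the Vim limit had 20.3 and the nearest cell kept out by that limit alone had 20.0 Vim UMIs per 10000, and in whole they were 20.6 inside and 19.5 outside. For the keratin sum the nearest values were 10.3 inside and 9.81 outside in enriched, and 11.6 and 7.12 in whole. For the trefoil sum they were 4.81 inside and 5.27 outside, and 4.27 and 5.69. For the collagen sum they were 14.9 inside and 21.1 outside, and 19.3 and 22.3. The trefoil limit alone kept out 196 enriched and 40 whole cells, the Vim limit alone 100 and 97, the keratin limit alone 77 and 19, and the collagen limit alone 6 and 7. Members had a median keratin sum of 51.4 per 10000 in enriched and 90.2 in whole, and a median Vim of 60.9 and 58.9.

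**Figure D1:**
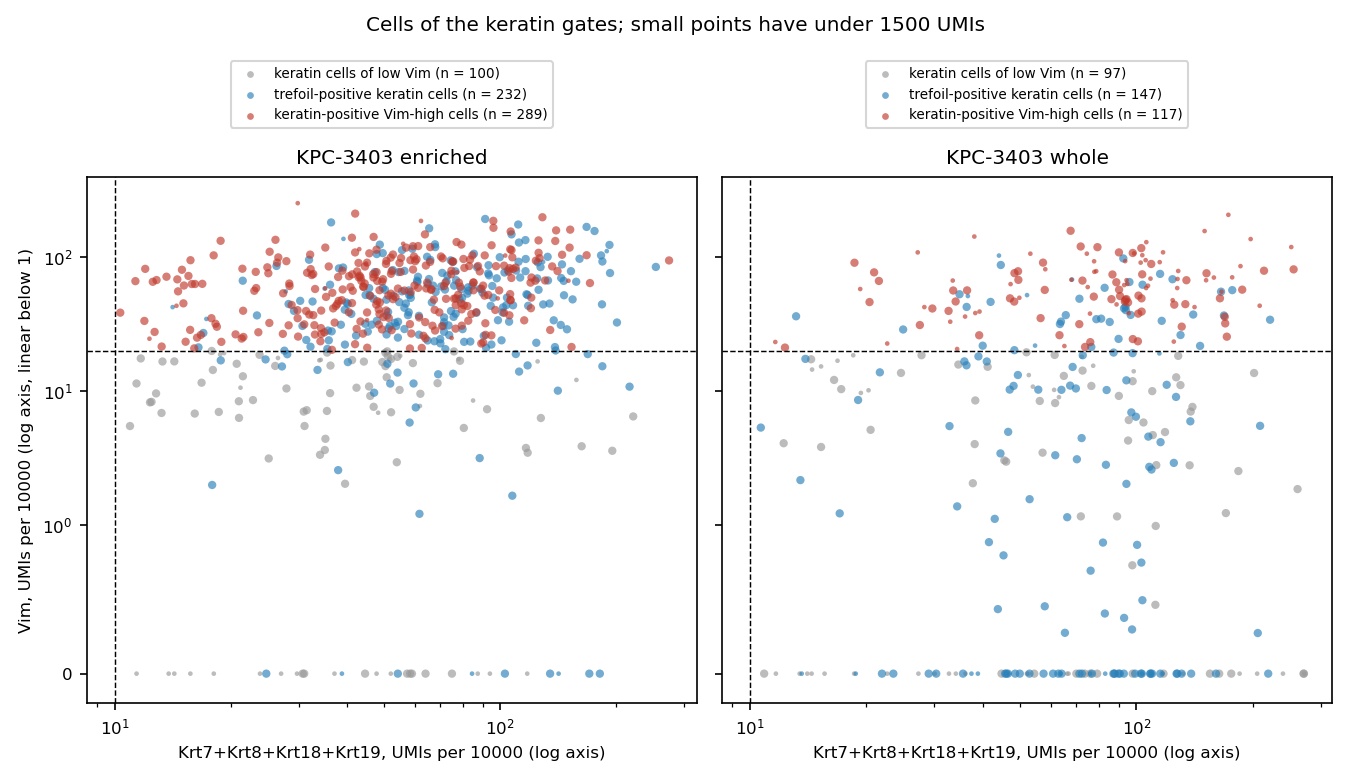
Each point is a KPC-3403 cell of the keratin gates, with the keratin sum (x) and Vim (y) per 10000 UMIs on log axes (Vim linear below 1); dashed lines mark the limits of 10 and 20, and small points have under 1500 UMIs. In enriched, the 289 members (red) overlap the 232 trefoil-positive cells (blue) in both measures; in whole, many trefoil-positive cells are at 0 Vim.

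The genes of the label were present in both KPC-3403 libraries. The keratin gene Krt18 (mm10, chr15:102028180-102032027, plus strand, ENSMUSG00000023043) summed to 2029 CPM, counts scaled by the members' summed UMIs so that 100 CPM equal 1 UMI in 10000, in enriched and 2174 CPM in whole. Krt19 (chr11:100140810-100148665, minus strand, ENSMUSG00000020911) summed to 1634 and 1654 CPM. Vim (chr2:13573927-13582826, plus strand, ENSMUSG00000026728) summed to 7080 and 5657 CPM. These 3 belong to the rule, and their levels describe it. Bmp2 (chr2:133552159-133562885, plus strand, ENSMUSG00000027358), a secreted bone morphogenetic protein ligand, stood at 154 CPM in enriched and 130 CPM in whole. Onecut2, a cut-homeodomain transcription factor, stood at 403 and 305 CPM. Flrt3 (chr2:140650914-140671469, minus strand, ENSMUSG00000051379), a leucine-rich repeat membrane protein that binds UNC5 receptors and latrophilins, stood at 173 and 101 CPM. Sprr1a (chr3:92483952-92485895, minus strand, ENSMUSG00000050359), a precursor of the cornified envelope of squamous cells, stood at 1148 and 682 CPM. All 4 were higher in enriched than in whole.

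Not every member carried them. Bmp2 had a UMI in 51.6% of enriched and 24.8% of whole members, Onecut2 in 85.1% and 33.3%, Flrt3 in 63.3% and 20.5%, and Sprr1a in 72.3% and 41.0%. Thinned to 1000 UMIs per cell, which left out 12 enriched and 38 whole members, Bmp2 had a UMI in 12.3% and 8.86%, Onecut2 in 37.5% and 15.2%, Flrt3 in 16.2% and 6.33%, and Sprr1a in 42.6% and 24.1%. In the 419 cells of the leukocyte gate of whole KPC-3403, which should lack them and had a median of 3921 UMIs, the shares were 0.477%, 0.477%, 2.63% and 1.43%, and 0%, 0%, 0.75% and 0% after thinning 400 of them. The members' shares were above that background in both libraries. Among members of at least 3000 UMIs (268 enriched, 48 whole), Sprr1a ranged from 0 to 191 per 10000 with a median of 3.83 in enriched, and from 0 to 73.2 with a median of 0.995 in whole. Bmp2 ranged from 0 to 27.8 with a median of 0.380, and from 0 to 8.33 with a median of 0.132.

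These 4 genes did not set the members apart from the other keratin cells of the line to the same degree. Bmp2 was at 83.4 CPM in the trefoil-positive keratin cells of enriched and 19.2 CPM in those of whole, below the members in both. Onecut2 was at 391.8 and 371 CPM there, close to the members in enriched and above them in whole. Flrt3 was at 130 and 85.8 CPM and Sprr1a at 931 and 411 CPM. The rule separates these gates by measured genes, so the values are a description without a test.

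Markers of other cell types were low in the members, but not all were at 0. The 12 fibroblast genes summed to 2.03 and 3.13 UMIs per 10000 in enriched and whole, with 0 and 4 of them at 0 UMIs, against 169.5 and 144 in the fibroblast gate. Dcn, a defining fibroblast proteoglycan, had 470 UMIs in 106 enriched members and 3 UMIs in whole. By mean CPM of both libraries, Ly6c1 and not Dcn was the highest of the 12 in the members. The 12 mesothelial genes summed to 1.35 and 2.24 per 10000, with 5 and 8 at 0, against 36.5 and 28.9 in the mesothelial gate. Of these 12, the rule sets 3 (Upk3b, Upk1b and Nkain4) to 0 in the members, and the mesothelial gate was drawn by the same 3. Those zeros and part of the contrast were thus fixed in advance. Most of the members' sum was Msln, at 115 and 196 CPM. The mesothelial factor Wt1 had 15 UMIs in 6 enriched members and 0 in whole. The 12 leukocyte genes, among which the rule sets Ptprc to 0, summed to 0.104 and 0.123. The 8 endothelial genes summed to 0.0714 and 0.0529, and the 8 pericyte and smooth muscle genes to 0.0405 and 0. The 8 acinar genes summed to 0.0733 and 0.388, the 6 Schwann and neural genes to 0.0347 and 0, and the 6 endocrine genes to 0 in both. The 6 erythroid genes summed to 0.00386 in enriched and 3.47 in whole. The epithelial genes Epcam and Cdh1 were low in enriched, at 19.7 and 35.3 CPM, and higher in whole, at 338 and 183 CPM.

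**Figure D2:**
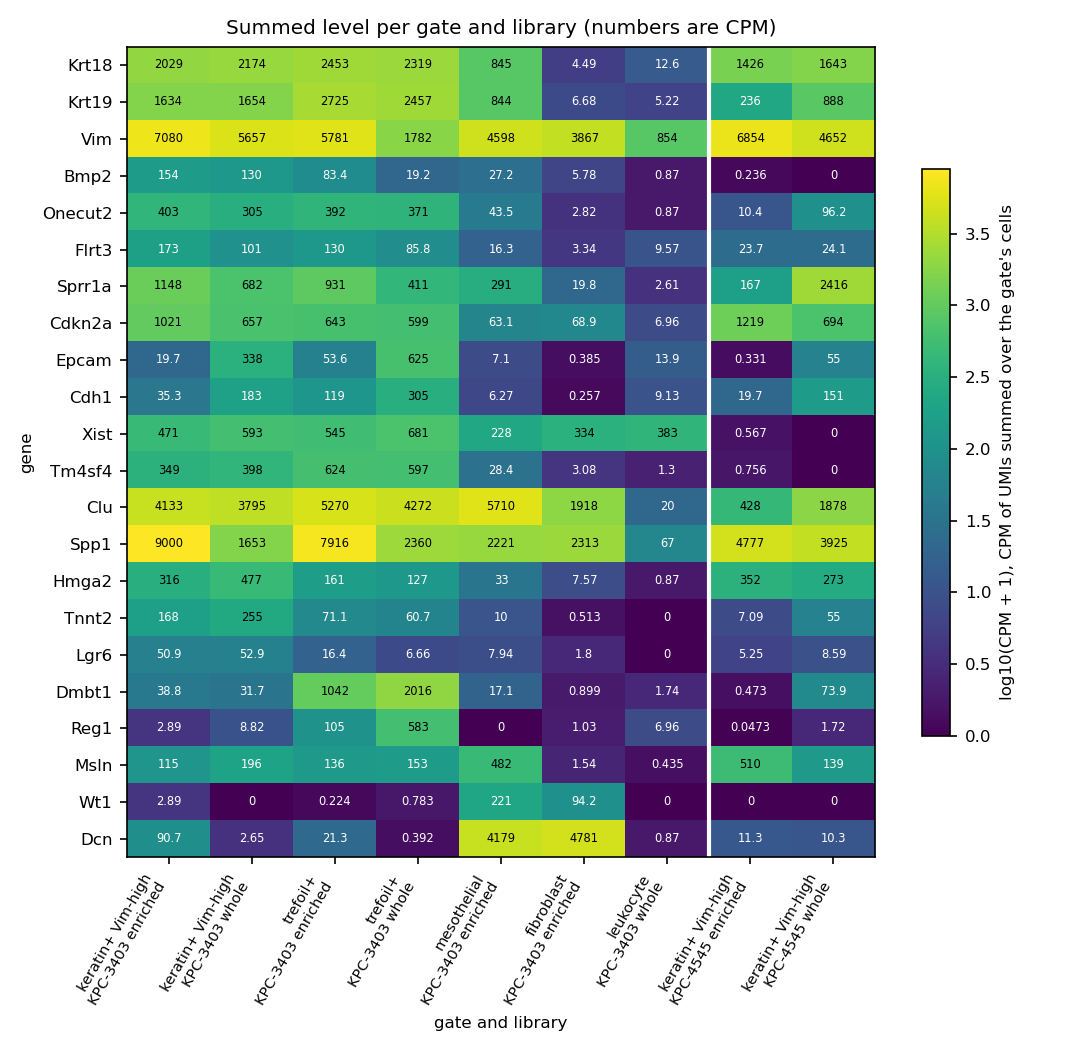
Summed CPM (numbers; colour is log10 of CPM + 1) of marker, leading and other named genes (rows) in the gates of each library (columns), with the same gate in KPC-4545 right of the white line. Bmp2 is at 154 and 130 CPM in the members and at 0.236 and 0 in KPC-4545, while Dmbt1 and Reg1 are high in the trefoil-positive columns.

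Against all other filtered KPC-3403 cells, the 25 genes with the highest ratios, taking the smaller of the ratios of the 2 libraries, ran from 15.9 times down to 3.67 times. The rule chose the cells by their RNA, so this is a portrait. It was led by 1700012B09Rik, at 66.6 CPM in enriched members against 4.17 CPM in other cells and 67.0 against 1.43 CPM in whole. Next came Tnnt2, a troponin of cardiac muscle (168 against 15.99 and 255 against 24.9 CPM), and Lgr6, an R-spondin receptor (50.9 against 5.31 and 52.9 against 3.92 CPM). The chromatin proteins Hmga2 (316 against 36.7 and 477 against 58.8 CPM) and Hmga1 (689 against 133 and 649 against 133 CPM) both stood among the 25. So did Ccnd1, the cyclin of the restriction point (243 against 49.1 and 477 against 103 CPM), the Notch ligand Jag1 (76.8 against 16.2 and 83.8 against 17.6 CPM) and the YAP-responsive Ankrd1 (154 against 35.4 and 348 against 54.5 CPM). Bmp2 itself (154 against 24.8 and 130 against 10.3 CPM), the cadherin Cdh6 (105 against 9.72 and 75.8 against 13.1 CPM) and the cytokine gene Csf2 (120 against 26.7 and 216 against 5.94 CPM) were there too. Prl2c2 and Prl2c3 also ranked, but they are near-identical copies whose UMIs may be split between them. The other 12 were Acsbg1, Lratd1, Myo10, Anxa10, Ank, Nrn1, Otud4, Nav2, Prkg2, Eno3, Acsl3 and Sinhcaf.

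The nearest cells are the trefoil-positive keratin cells of the same libraries. Of 7738 genes, 110 (1.42%) were at least 2-fold higher and 225 (2.91%) at least 2-fold lower in the members in both libraries. Higher in the members were Ptgs2, the inducible cyclooxygenase (122 against 28.2 CPM in enriched and 171 against 12.5 CPM in whole), Igfbp3, which binds insulin-like growth factors (289 against 74.6 and 278 against 29.8 CPM), and Timp3, a metalloproteinase inhibitor (49.4 against 7.85 and 22.0 against 3.52 CPM). Lower was Dmbt1, a secreted mucosal protein. It stood at 38.8 against 1042 CPM in enriched and 31.7 against 2016 CPM in whole. The secreted lectin Reg1 stood at 2.89 against 105 and 8.82 against 583 CPM, and Lypd8 at 0.193 against 147 and 2.65 against 288 CPM. Of the 11 listed gastric and pancreatobiliary genes past the level filter, 8 were lower in the members. The trefoil limit itself splits these gates by Tff1, Tff2 and Agr2, secretory genes of the same kind, so this count is a description without a test. Of the class II antigen presentation genes, 5 of 6 were lower, among them the invariant chain Cd74 (72.2 against 480 and 38.8 against 515 CPM). None of the 18 S-phase and 24 G2/M genes compared differed by 2-fold in both libraries.

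The line comparison set cells that passed the same rule in tumours of KPC-3403 and KPC-4545 against each other. UMIs were summed over the gated cells of each of the 4 libraries and tested with edgeR's quasi-likelihood test, with preparation as a second term and 1 residual degree of freedom. Of 10606 genes, 453 (4.27%) were higher and 201 (1.9%) lower in KPC-3403 at an adjusted p of 0.05. The median log2 difference over all genes was 0.02. Dropping the preparation term, with all 4 libraries kept, left 138 higher and 45 lower. Fits that leave out 1 library have 3 sums and so also lack that term, and a call lost in them cannot be assigned to the library alone. Without enriched KPC-4545, which leaves its 30 whole cells as the only sum of that line, 50 genes were higher and 36 lower. Without whole KPC-4545 they were 733 and 447, without enriched KPC-3403 79 and 25, and without whole KPC-3403 246 and 96. Of all 654 genes past the threshold, 28 also passed in each of these 4 fits and 83 in none. The gated cells also differed in markers of other cell types. The 12 mesothelial genes summed to 5.24 and 1.53 UMIs per 10000 in enriched and whole KPC-4545, against 1.35 and 2.24 in the members. The 12 fibroblast genes summed to 1.04 and 6.79, against 2.03 and 3.13. Dcn gave few of these UMIs in the whole libraries, 6 of 395 in KPC-4545 and 3 of 355 in the members. Msln had a UMI in 77.6% of the 742 gated cells of enriched KPC-4545, and Wt1 in 0%. There 8 of the 12 mesothelial genes were at 0 UMIs, including the 3 that the rule sets to 0. Msln also had a UMI in 75.4% and 67.3% of the trefoil-positive keratin cells of enriched and whole KPC-3403. With cells limited to those without a UMI of Msln, Wt1, Lrrn4, Gpm6a or Muc16, which left 166 and 16 cells of KPC-4545 and 127 and 72 members, 3171 genes could be tested, and 0 were higher and 6 lower (378 with an unadjusted p under 0.05). That limit takes out every cell with Msln, so it cannot tell other cells from keratin cells that carry Msln. The part of other cells in the line differences was not tested. The rule's own genes were left out of the adjustment. Tff1 had 0 and 1 UMIs and Tff2 1 and 0 in gated cells of enriched and whole KPC-4545. The rule itself keeps these genes low there, so the counts cannot show whether the trefoil limit acted alike in both lines. Trefoil-positive keratin cells numbered 55 and 10 in enriched and whole KPC-4545, against 232 and 147 in KPC-3403.

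The genes with the highest differences were nearly absent from the gated cells of KPC-4545. Xist, the RNA that silences an X chromosome in female cells, stood at 471 CPM in enriched and 593 CPM in whole members, and at 0.567 and 0 CPM in KPC-4545, a log2 difference of 9.85 ± 0.49 (SE; adjusted p = 3.27e-05). It was present in both lines' fibroblast gates, at 334 and 462 CPM in KPC-3403 and 571 and 278 CPM in KPC-4545. Tm4sf4 (chr3:57425314-57441677), a membrane protein of the tetraspan L6 family, stood at 349 and 398 CPM against 0.756 and 0 CPM (log2 9.02 ± 0.47, adjusted p = 3.27e-05). Bmp2 stood at 154 and 130 CPM against 0.236 and 0 CPM (log2 9.38 ± 0.53, adjusted p = 3.62e-05). Whole members had at least 25.1 times as much Bmp2 as 3 UMIs would give in whole KPC-4545. All 3 passed with each library left out. Bmp2 marks these cells in their label, so its difference is no independent evidence. Of the few UMIs in gated cells of enriched KPC-4545, 11 of 12 for Xist, 7 of 16 for Tm4sf4 and 3 of 5 for Bmp2 lay in the 20 barcodes with more UMIs in another library. Outside the gate, Xist and Tm4sf4 each had a UMI in 32.7% of the 55 trefoil-positive keratin cells of enriched KPC-4545, and Bmp2 in 0%. In the 10 such cells of whole KPC-4545 the shares were 10%, 20% and 0%. The part of barcodes shared between libraries in these shares was not tested.

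The other 7 of the 10 highest were Mcpt1, Gzme, Crisp1, Saa3, Lbp, Clec2f and Il5ra. Crisp1, a cysteine-rich secretory protein, stood at 66.6 and 101 CPM against 0.0473 and 0 CPM (log2 10.14 ± 0.63, adjusted p = 5.45e-05), and it passed with each library left out. Mcpt1, a mast cell protease gene, stood at 96.1 and 116 CPM against 0 and 1.72 CPM (adjusted p = 0.00859). It had UMIs in 49 enriched and 12 whole members. Gzme, a granzyme gene, had 102 and 29 UMIs against 0 and 0. That is at least 139-fold higher in enriched and at least 4.96-fold higher in whole, taking 3 UMIs per KPC-4545 library. Saa3 and Lbp, acute-phase genes, differed between the preparations as well. Saa3 was at 45.9 and 7.05 CPM against 0.0473 and 0 CPM, and Lbp at 177 and 10.6 CPM against 0.284 and 1.72 CPM. Each of these 2 passed with whole KPC-3403 left out and failed with any other library left out. Mcpt1, Gzme, Saa3 and Il5ra are known from immune or liver cells. The 12 leukocyte markers summed to 0.104 and 0.123 per 10000 in the members, with 4 and 6 of them at 0. Among those at 0 is Ptprc, by the rule. The 238 Saa3 UMIs of enriched KPC-3403 lay in 131 of 289 members, at most 22 per cell. The part of other cells and of free RNA in these genes was not tested.

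Lower in KPC-3403 was Cldn18, a claudin of gastric epithelium, with 0 UMIs in both member sums and 28.9 and 199 CPM in enriched and whole KPC-4545. It was at least 49.9-fold and 75.3-fold lower, taking 3 UMIs per KPC-3403 library, and failed with either KPC-3403 library left out. Lmo1, a LIM-only transcriptional cofactor, also had 0 UMIs in both against 64.6 and 3.44 CPM, and Amdhd2, an enzyme of amino sugar metabolism, 0 against 43.6 and 12.0 CPM. In whole KPC-4545 these values rest on 2 UMIs of Lmo1 and 7 of Amdhd2. Cxcl1 (chr5:90891241-90893115), a neutrophil chemokine, stood at 7.33 and 4.41 CPM against 1273 and 512 CPM (log2 -7.20 ± 0.39, adjusted p = 3.27e-05). It passed with each library left out, although 254 of its 298 UMIs in whole KPC-4545 lay in 1 cell. Mgp, the matrix Gla protein, stood at 39.6 and 0.882 CPM against 2068 and 321 CPM (log2 -6.10 ± 0.52, adjusted p = 0.0013), and failed with any library left out. The others of the 10 lowest were Gm42031, Gm46620, Amigo2, Rangrf and Msx1. Of the 20 genes of both directions, 16 passed without whole KPC-4545, 16 without whole KPC-3403, 11 without enriched KPC-3403 and 9 without enriched KPC-4545.

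Among the label's other genes, Flrt3 was higher in KPC-3403 and the rest were not called. Flrt3 is in the label like Bmp2, so its difference is no independent evidence either. Flrt3 stood at 173 and 101 CPM against 23.7 and 24.1 CPM (log2 2.61 ± 0.35, adjusted p = 0.00336). It failed without either enriched library. Onecut2 stood at 403 and 305 CPM against 10.4 and 96.2 CPM (log2 3.62 ± 1.66, adjusted p = 0.423). Sprr1a stood at 1148 and 682 CPM against 167 and 2416 CPM (log2 0.53 ± 2.35, adjusted p = 0.933), where 1095 of the 1406 UMIs of whole KPC-4545 lay in 1 cell. Without that library the direction held, while it turned to -0.13 without whole KPC-3403, -0.97 without enriched KPC-3403 and -1.41 without enriched KPC-4545. Cdkn2a, the locus of the p16 and p19Arf cell cycle brakes, stood at 1021 and 657 CPM against 1219 and 694 CPM (log2 -0.12, adjusted p = 0.842; 0.26 without enriched KPC-4545 and 0.16 without whole KPC-3403). Hmga2, high in the members against other KPC-3403 cells, stood at 316 and 477 CPM against 352 and 273 CPM (log2 0.36, adjusted p = 0.535).

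The ligands of the BMP pathway act through Smad proteins on Id genes. Of its 18 tested genes, 4, the label gene Bmp2 included, were higher and 1 lower, with a median log2 difference of 1.13. Over all 10606 tested genes, 4.27% were higher and 1.9% lower, and this and the lists below are to be read against these shares. In a short list, 1 call says little about the list. Beside Bmp2 the ligand Bmp7 (34.0 and 15.9 CPM against 3.69 and 3.44 CPM), the target Id2 (270 and 195 CPM against 26.1 and 39.5 CPM, log2 2.98 ± 0.37, adjusted p = 0.00261) and the inhibitory Smad7 (127 and 153 CPM against 51.4 and 27.5 CPM) were higher. The secreted antagonist Grem1 was lower (10.6 and 7.05 CPM against 30.5 and 36.1 CPM). Id1 stood at 300 and 239 CPM against 193 and 67.0 CPM and missed the threshold (adjusted p = 0.0622). Of these 5 calls, 5, 4, 3 and 2 passed without whole KPC-4545, whole KPC-3403, enriched KPC-4545 and enriched KPC-3403, and Bmp2 and Id2 passed each time.

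A short list of Flrt3 and its relatives and partners had 7 tested genes, of which 3, Flrt3 itself included, were higher and 1 lower. The list was built around Flrt3, a gene of the label, so its call adds no independent evidence. Flrt2, a paralogue, stood at 10.8 and 10.6 CPM against 1.32 and 0 CPM, and the latrophilin Adgrl3, a receptor of FLRT proteins, at 28.6 and 16.8 CPM against 10.3 and 3.44 CPM. Fgfr1, a growth factor receptor that FLRT proteins bind, was lower, at 9.84 and 3.53 CPM against 53.5 and 12.0 CPM. Of these 4 calls, 3 passed without whole KPC-4545, 1 without whole KPC-3403, and 0 without either enriched library.

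Epithelial lists differed among themselves. Of 24 tested junction genes 5 were higher and 1 lower, with a median log2 difference of 2.02. The desmosomal cadherin Dsg2 (17.9 and 75.8 CPM against 0.426 and 6.87 CPM), the tight junction protein Ocln (8.68 and 14.99 CPM against 0.662 and 3.44 CPM) and Jup, or plakoglobin (88.8 and 101 CPM against 32.4 and 12.0 CPM), were among the higher, with Cldn4 and Spint2. The lower gene was Cldn18. Epcam stood at 19.7 and 338 CPM against 0.331 and 55.0 CPM (log2 3.97 ± 1.06, adjusted p = 0.192) and did not pass, with a log2 difference of -0.15 without whole KPC-3403. Of 18 epithelial transcription factors 3 were higher and 0 lower (median 1.70). Ehf, an ETS factor of epithelia, stood at 39.9 and 33.5 CPM against 1.56 and 1.72 CPM (log2 4.70 ± 0.47, adjusted p = 0.000908) and passed with each library left out. Sox9, a factor of duct cells, stood at 322 and 133 CPM against 78.2 and 67.0 CPM, and Cdx2, an intestinal factor, at 5.98 and 9.70 CPM against 0.0946 and 0 CPM. Of the 6 junction calls, 4 passed without whole KPC-4545, 2 without enriched KPC-4545 and 1 without either KPC-3403 library.

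Of the gastric and pancreatobiliary list, 3 of 12 tested genes were higher and 0 lower, with a median log2 difference of 3.08. Spink4, a secreted protease inhibitor (16.2 and 3.53 CPM against 0.142 and 0 CPM), Lgals2, a galectin (92.8 and 222 CPM against 3.36 and 17.2 CPM), and the membrane mucin Muc4 (4.63 and 9.70 CPM against 0.0473 and 0 CPM) passed. Clu, the most abundant listed gene of this group, stood at 4133 and 3795 CPM against 428 and 1878 CPM and did not pass (log2 2.19 ± 0.71, adjusted p = 0.186). The 3 calls all passed without whole KPC-4545, 2 of them without whole KPC-3403, and 0 without either enriched library. Of 11 squamous and basal genes S100a14 alone passed (22.4 and 149 CPM against 2.93 and 63.6 CPM, log2 2.15 ± 0.48, adjusted p = 0.0469). It failed with any library left out, and without whole KPC-3403 its log2 difference was -0.29. Of the 6 keratins tested outside the rule, 1 was higher, the basal keratin Krt14 (132 and 107 CPM against 17.7 and 39.5 CPM), and the list's median was -0.53. Krt14 passed without either whole library and failed without either enriched one.

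Genes of the mesenchymal transition were split. Of 17 tested, 2 were higher and 4 lower, with a median of -0.38. Fn1, or fibronectin, was higher (1165 and 787 CPM against 412 and 174 CPM, log2 1.87 ± 0.30, adjusted p = 0.00829), as was the hyaluronan receptor Cd44 (425 and 670.2 CPM against 147 and 192 CPM). Lower were N-cadherin, Cdh2 (2.12 and 0 CPM against 14.04 and 24.1 CPM), the calcium-binding S100a4 (429 and 135 CPM against 1527 and 1119 CPM), the matrix protein Sparc (185 and 48.5 CPM against 889 and 268 CPM) and Tgfbi (17.6 and 9.70 CPM against 106 and 30.9 CPM). Without whole KPC-4545, 4 of these 6 passed, without either KPC-3403 library 2, and without enriched KPC-4545 1. In the collagen and matrix list, 1 of 17 was higher (Fn1) and 3 were lower: Sparc, Col6a3 and Timp1, the metalloproteinase inhibitor (297 and 163 CPM against 1265 and 818 CPM). Of these 4, 3 passed without whole KPC-4545, 2 without whole KPC-3403 and 1 without either enriched library. Of 14 TGF-beta genes 1 was higher, the ligand Tgfb1 (186 and 97.0 CPM against 52.6 and 49.8 CPM), which passed in 1 of the 4 fits without a library.

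The laminin and integrin list, which holds the parts of the epithelial anchor to basement membrane, had 5 of 17 genes higher and 0 lower (median 1.19). Itga2 stood at 43.0 and 163 CPM against 0.662 and 13.7 CPM (log2 5.06 ± 0.67, adjusted p = 0.0132), and Lamb3, a chain of laminin-332, at 42.8 and 215 CPM against 1.32 and 10.3 CPM (log2 4.84 ± 0.39, adjusted p = 0.000227). In each line the whole sum was the higher of the pair for both genes. Itgb4 (87.8 and 122 CPM against 24.0 and 61.9 CPM) and Itga6 (206 and 385 CPM against 97.8 and 158 CPM), which pair as the hemidesmosome integrin, also passed. Without whole KPC-4545 2 of the 5 passed, without enriched KPC-3403 1, and without whole KPC-3403 or enriched KPC-4545 0. Of 12 protease and plasminogen genes 3 were higher: the metalloproteinase Adamts1 (82.4 and 59.1 CPM against 9.83 and 5.16 CPM), which passed with each library left out, the plasminogen activator Plat and the urokinase receptor Plaur. Plat and Plaur both passed only without whole KPC-4545.

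Hypoxia and glycolysis genes had 7 of 18 higher and 0 lower, with 17 of 18 differences positive and a median of 1.33. Vegfa, the angiogenic factor, stood at 233 and 206 CPM against 16.7 and 34.4 CPM (log2 3.36 ± 0.39, adjusted p = 0.00242). Adm, the peptide adrenomedullin, stood at 61.6 and 63.5 CPM against 6.62 and 1.72 CPM (log2 3.63 ± 0.44, adjusted p = 0.00219). The glucose transporter Slc2a1 stood at 272 and 158 CPM against 55.1 and 51.6 CPM, and hexokinase Hk2 at 160.2 and 215 CPM against 39.5 and 77.3 CPM. Pdk1, Gapdh and Pfkl also passed. Of the 7, 6 passed without whole KPC-4545, 4 without whole KPC-3403 and 2 without either enriched library; Vegfa and Adm passed each time.

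Among 17 genes that report MAPK output, 4 were higher: the feedback inhibitors Spry2, Dusp4 and Dusp5 and the receptor Epha2 (77.8 and 183 CPM against 32.1 and 37.8 CPM). Dusp4 stood at 131 and 59.96 CPM against 31.7 and 15.5 CPM, and Spry2 at 15.6 and 24.7 CPM against 1.47 and 6.87 CPM. Of these 4, 2 passed without whole KPC-4545, 1 without either KPC-3403 library and 0 without enriched KPC-4545. Of 10 EGF family genes 0 passed in either direction at adjusted p 0.05, and the same held for 20 S-phase and 24 G2/M genes (medians -0.31 and -0.67). Of 22 drivers and brakes of the cycle, the cyclin Ccnd2 (65.2 and 89.9 CPM against 5.72 and 18.9 CPM) and the p53 target Cdkn1a (103 and 51.1 CPM against 11.7 and 18.9 CPM) were higher and the inhibitor Cdkn2c was lower (5.98 and 5.29 CPM against 34.2 and 30.9 CPM). All 3 passed without either whole library and 0 without either enriched one.

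Chemokine and cytokine genes went both ways, with 4 of 17 higher and 5 lower. Higher were Cxcl3 (75.8 and 111 CPM against 21.5 and 5.16 CPM), Cxcl5, Csf2 (120 and 216 CPM against 41.5 and 110 CPM) and the alarmin Il33. Lower beside Cxcl1 were the monocyte chemokines Ccl2 (22.4 and 0.882 CPM against 782 and 68.7 CPM, log2 -5.19 ± 0.39, adjusted p = 0.000199) and Ccl7, the macrophage growth factor Csf1 and Cx3cl1 (23.0 and 7.94 CPM against 123 and 29.2 CPM). Of the 9, 6 passed without whole KPC-4545, 2 without enriched KPC-4545, 2 without whole KPC-3403 and 1 without enriched KPC-3403, and Ccl2 failed with any library left out. Of 20 MHC class I and interferon genes 1 was lower, Ifitm3, an antiviral membrane protein (366 and 410.1 CPM against 2859 and 1401 CPM), which passed in 3 of the 4 fits without a library. Of 6 class II genes 0 passed, with Cd74 at 72.2 and 38.8 CPM against 6.95 and 113 CPM. The heat shock list had 1 of 14 lower, Hspb8 (1.93 and 0 CPM against 77.3 and 65.3 CPM), which passed with each library left out, and the mitochondrially encoded list 1 of 13 lower, mt-Atp8, which passed in 1 of the 4. Of 22 immediate early genes Btg2 and Fosb were higher; Btg2 passed in 0 and Fosb in 1 of the 4 fits. Among the marker lists of other cell types, 3 genes passed: the leukocyte gene S100a8 (5.79 and 3.53 CPM against 0.142 and 0 CPM), the mesothelial Tmem151a, both higher, and the endothelial Plvap, lower. Plvap passed in 2 and the others in 1 each of the 4 fits. Of the 4 fibroblast and 4 erythroid markers tested 0 passed. Over all 10606 tested genes 4.27% were higher and 1.9% lower, so 1 or 2 calls in lists of this size say little about the lists.

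**Figure D3:**
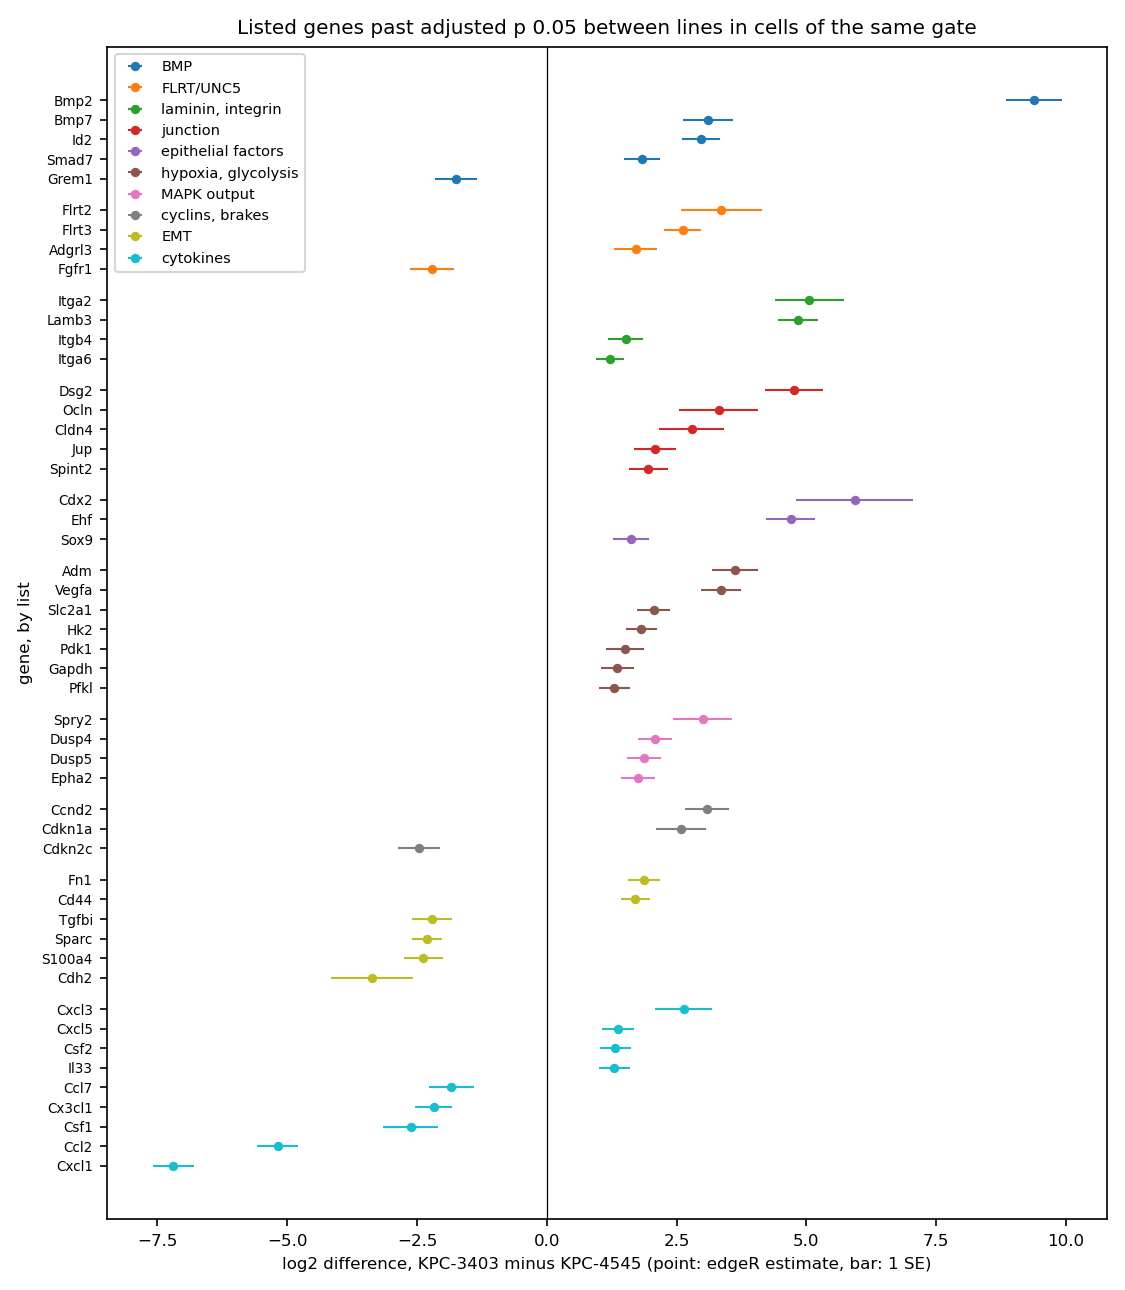
Log2 difference of KPC-3403 minus KPC-4545 (x; point is edgeR's estimate, bar 1 SE) for genes of the 10 lists in the legend past an adjusted p of 0.05 (y, grouped by list) in cells of the same gate. Of the genes drawn, Bmp2 lies farthest right at 9.38 and Cxcl1 farthest left at -7.20; Cldn18 passed too and is not drawn, since it had 0 UMIs in KPC-3403, and 1 gene not reported here is left out.

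The comparison of preparations asks how members that escaped the sort differ from those of the unsorted suspension. Within KPC-3403 it is 1 library against 1 and has no replicate check. Of 7630 genes, 232 (3.04%) were at least 2-fold higher in enriched and 521 (6.83%) in whole. Spp1 (chr5:104435118-104441050), the secreted phosphoprotein osteopontin, stood at 8999.8 CPM in enriched and 1653 CPM in whole members, a ratio of 5.45 (exact 95% counting interval 5.20005 to 5.71). Its median per member of at least 3000 UMIs was 39.7 per 10000 in enriched (0 to 1110) and 9.48 in whole (0 to 74.6), so the cells overlapped widely. Gadd45g, a stress-induced gene, had a ratio of 5.94 (4.91 to 7.26), the RNA-decay factor Zfp36 one of 5.17 (4.27 to 6.32), the factor Cebpd one of 6.96 (4.52 to 11.3) and the growth arrest gene Gas1 one of 7.92 (4.26 to 16.7). The chemokine Cxcl2 had a ratio of 27.8 (12.7 to 76.1) and Lbp one of 16.7 (9.54 to 32.5). Lcn2, the iron-siderophore binder lipocalin, had 367 UMIs in 22 enriched members and 0 in whole, at least 26.8-fold higher. Of the 323 UMIs of Sprr2h, a gene with close paralogues, 292 lay in 1 cell. Dcn, a fibroblast marker, was also among the 10, with 470 UMIs in enriched and 3 in whole, a ratio of 34.3 (11.7 to 167).

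Higher in whole members were the globins. Hbb-bs had 199 UMIs in 92 whole members and 0 in enriched, Hba-a1 74 and 0, and Hba-a2 79 and 1. Free RNA held 725 erythroid UMIs per 10000 in whole and 6.17 in enriched, and its part in the globin counts was not tested. Epcam stood at 338 CPM in whole and 19.7 CPM in enriched members, a whole-to-enriched ratio of 17.2 (13.8 to 21.6), and the sort removed cells with EPCAM protein. Of the 383 Epcam UMIs in whole, 128 lay in 1 cell and 277 in 5. The other 6 of the 10 genes rest on few cells in the same way. For Lama3, a laminin-332 chain, 115 of 182 UMIs lay in 1 cell, for 2210407C18Rik 135 of 149, for Cyp4b1 40 of 62, for the guanylate-binding Gbp7 48 of 75, and for Sprr2f all 69. For Cd274, which encodes PD-L1, 58 of 59 UMIs lay in 5 cells.

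List sums also differed between the preparations, again as 1 library against 1. G2/M genes summed to 8.25 UMIs per 10000 in enriched and 24.1 in whole members, and 20 of 24 were at least 2-fold higher in whole. Restricted to members of at least 3000 UMIs the sums were 8.22 and 22.9. S-phase genes summed to 5.27 and 9.45, with 9 of 19 at least 2-fold higher in whole. Immediate early genes, the first to respond to growth factors and stress, summed to 150 and 67.3, with 10 of 20 at least 2-fold higher in enriched. Junction genes summed to 9.91 and 19.5, with 10 of 19 higher in whole, laminins and integrins to 13.1 and 25.7, with 5 of 16, and MHC class I and interferon genes to 47.4 and 62.4, with 12 of 20. The hypoxia and glycolysis list was nearer, at 168 and 145.

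**Figure D4:**
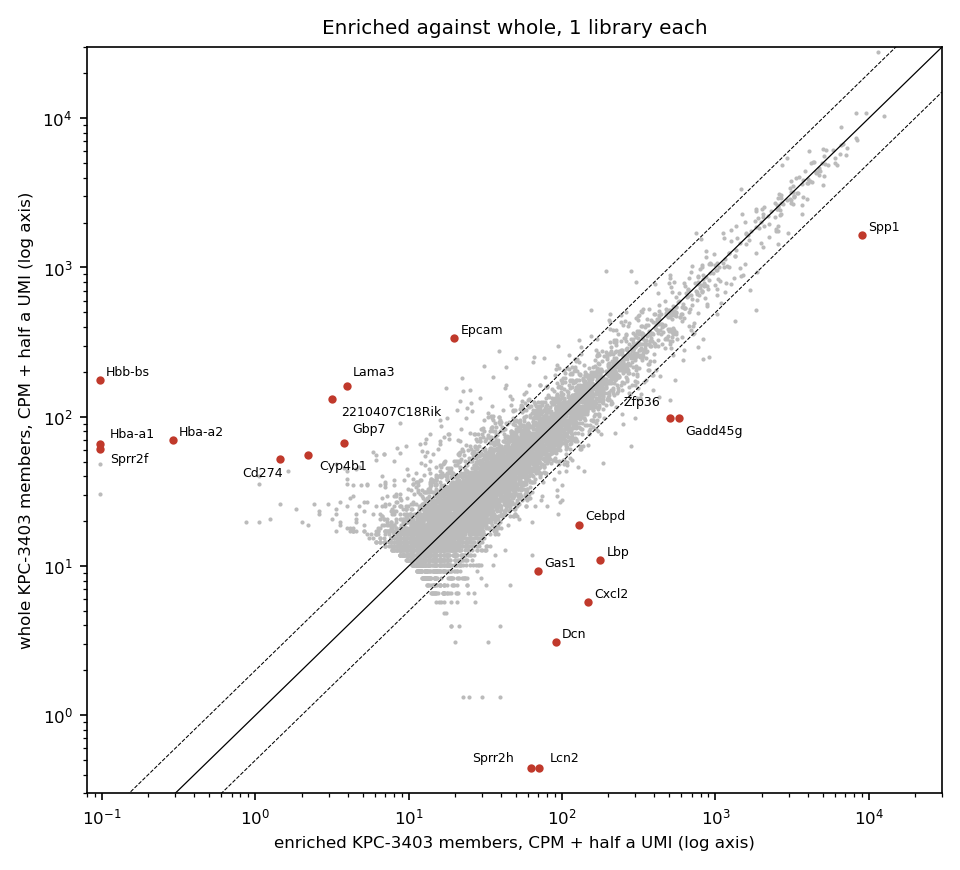
Summed CPM of each gene in the enriched (x) and whole (y) KPC-3403 members, 1 library each, on log axes with 0.5 UMI added; the solid line is equality, dashed lines are 2-fold, and red points are the 10 named genes per direction. Spp1 lies right of the lines at 8999.8 against 1653 CPM, and Epcam and the globins lie above them.

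Over both lines, the same 4 sums tested for preparation gave 16 genes higher (0.151%) and 12 lower (0.113%) in enriched, 0.264% of the genes in all. Without the line term, with all 4 libraries kept, 0 genes passed in either direction (313 had an unadjusted p under 0.05). Fits that leave out 1 library also lack that term, so their counts cannot be assigned to the library alone. Without whole KPC-4545 or without whole KPC-3403 they were 0 in both directions (196 and 321 unadjusted). Without enriched KPC-3403 they were 113 and 214, and without enriched KPC-4545 14 and 26. Higher were Gadd45g (577 and 97.0 CPM in enriched and whole KPC-3403, 616 and 43.0 CPM in KPC-4545, log2 3.11 ± 0.36, adjusted p = 0.0136) and Zfp36 (502 and 97.0 CPM, 949 and 143 CPM, log2 2.51 ± 0.29, adjusted p = 0.0133). Ccl7, Cryab, Ccl2, Gas1, Crabp2, Nfil3 and Sod3 were also among the 10 highest, and the log2 differences of Ccl2, Crabp2 and Sod3 changed sign without enriched KPC-4545. Crabp1 had 79 UMIs in 5 enriched KPC-3403 members and 0 in both whole sums. Lower in enriched were the globins Hbb-bs, Hba-a2 and Hba-a1, with Cdh1, or E-cadherin (35.3 and 183 CPM, 19.7 and 151 CPM, log2 -2.69 ± 0.32, adjusted p = 0.0133), the tight junction gene Cldn7 (3.86 and 43.2 CPM, 1.04 and 44.7 CPM), the serpin Serpinb5, the interferon-induced Gbp2b and Tgtp1, Gpx2 and Acan. Of the 22 immediate early genes 4 passed as higher and all 22 differences were positive, with a median log2 difference of 1.45 against 0.01 over all genes. Of the 24 G2/M genes 0 passed, and 1 difference was positive.

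Members fell into 6 sub-groups on Leiden clustering, which are called by number, since clusters made from these values are no test. Sub-group 0 had 116 cells (106 enriched, 10 whole) and was led by Mxd1, Adm, the stress factor Ddit3 and Ero1l (883 CPM against 215 CPM in other members), with Vegfa at 435 CPM and Slc2a1 at 557 CPM. Sub-group 2 had 83 cells (80 and 3), led by the immediate early genes Arc, Nr4a1 (263 against 31.6 CPM), Btg2 (1255 against 183 CPM) and Zfp36 (1171 against 199.9 CPM), with Spp1 at 16639 CPM, Fn1 at 2441 CPM and Id1 at 741 CPM. Bmp2 was highest in these 2, at 252 and 239 CPM. Sub-group 1 had 84 cells (25 and 59) and was led by mitotic genes such as Nusap1, Ccnb1, Top2a (271 against 7.58 CPM) and Ube2c (818 against 22.5 CPM). It held 50.4% of whole and 8.65% of enriched members, and 35 of its cells had under 1500 UMIs.

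Sub-group 4 had 39 cells (32 and 7) and was led by Muc13 (93.9 against 1.83 CPM), Dmbt1 (278 against 13.996 CPM), Prom1, Tmprss2 and Krt20 (331 against 51.4 CPM), genes of glandular epithelium, although the rule had removed cells over the trefoil limit. Its Onecut2 was the highest of the 6, at 696 CPM. Sub-group 5 had 32 cells (31 and 1) and was led by Crabp2 (95.9 against 5.60 CPM), Rgs16, Col8a1, Htra1 and Sparc (603 against 90.7 CPM), with Dcn at 258 CPM against 46.0 CPM and Spp1 at 14165 CPM. Its Cdkn2a was the highest, at 1580.0 CPM, and its Krt19 the lowest, at 889 CPM. The fibroblast genes Sparc and Dcn stood beside keratins there, and the part of fibroblast RNA in this was not tested.

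Sub-group 3 stood apart in some of the label's genes. Its 52 cells (15 enriched, 37 whole) had a median of 1321 UMIs, 30 had under 1500, 7 had more UMIs under their barcode in another library, and 1 was called a doublet. It was led by Hba-a1, Hbb-bs and Hba-a2, with Lgals4 (1050.1 against 145 CPM), Gm42418 (69174 against 13181 CPM), a gene model that overlaps ribosomal RNA, and Epcam (276 against 72.6 CPM). Bmp2 stood at 7.45 CPM, Onecut2 at 44.7 CPM and Xist at 44.7 CPM, and Flrt3 had 0 UMIs of 134271, which allows up to 3. It made up 31.6% of the whole and 5.19% of the enriched members. Bmp2, Onecut2, Flrt3 and Xist were lower here than in any other sub-group, and the part of depth and free RNA in this was not tested.

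**Figure D5:**
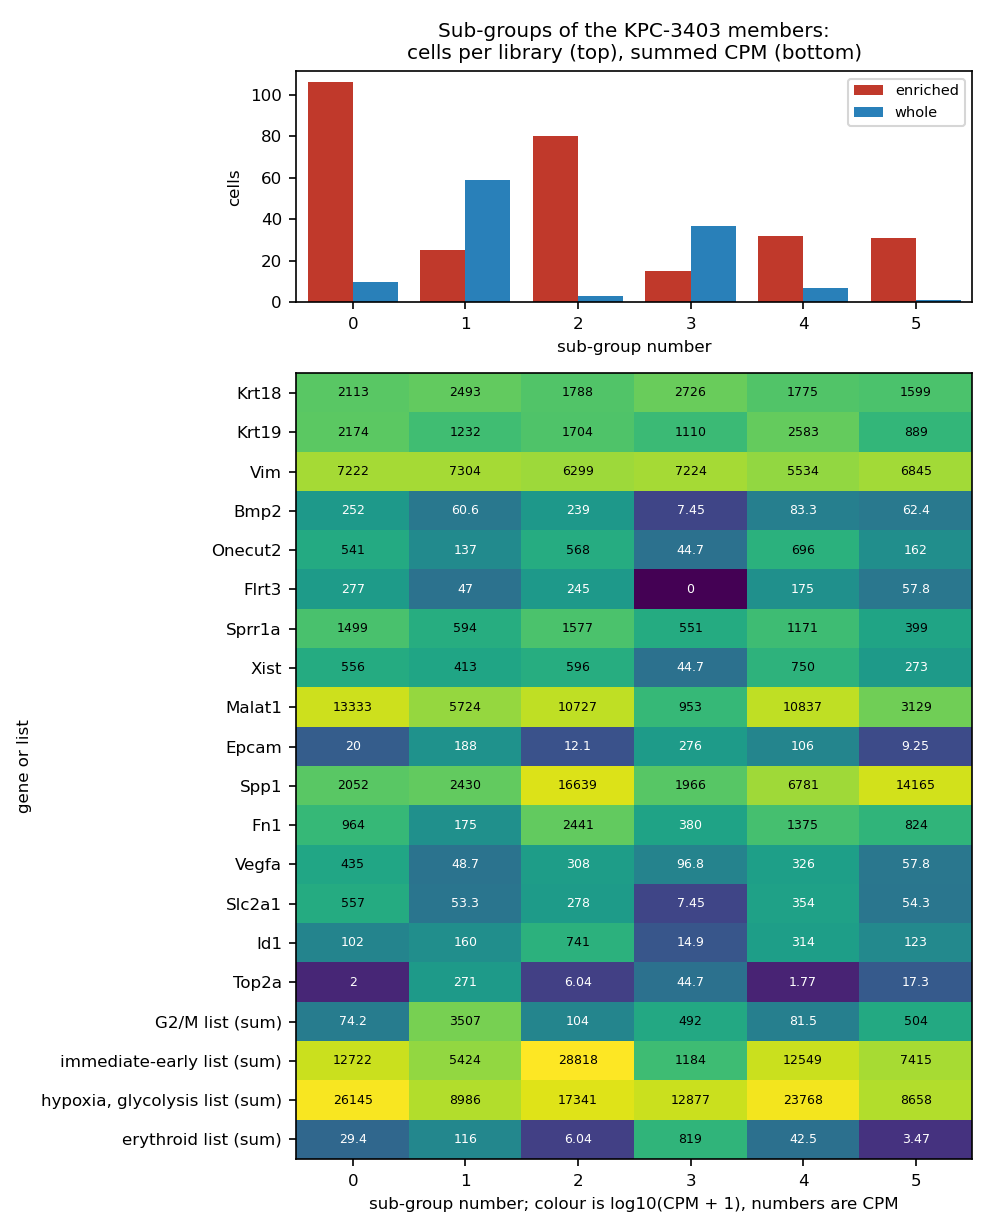
Cells per sub-group in each library (top, bars from 0) and summed CPM of genes and lists in each sub-group (bottom, numbers; colour is log10 of CPM + 1). Sub-groups 0 and 2 are mostly enriched and hold the most Bmp2, sub-group 1 carries the G2/M genes, and sub-group 3 has the erythroid genes and 0 Flrt3.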

How the data were processed

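Gene-by-barcode UMI count matrices were used as the authors deposited them, unfiltered and not normalized. The submitters' processing notes name Cell Ranger 6.1.1 and mm10, and the file headers Cell Ranger 4. 0 columns of other samples were found. The members, gene lists and tests were chosen with earlier results of these data known.

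Cells were filtered and gated by the rule. Doublets were scored with Scrublet (scanpy 1.11.5) at an expected 0.8% per 1000 cells and kept, with their removal as an alternative. Counts of gated cells were summed per library. The test was edgeR 4.0.16 (R 4.3.3; glmQLFit, robust; TMM; filterByExpr; Benjamini-Hochberg at 0.05), with DESeq2 1.42.0 as an alternative. The SE is the log2 difference divided by the root of the F statistic. In fits that leave out a library, 1 term was kept, so a lone sum is assumed to vary like the other group. Log2 values outside edgeR had 0.5 UMI added. Data of 10377 genes were simulated for the line comparison with a fixed dispersion of 0.05 and no preparation effect. Before the line change, each gene had the same mean level in all libraries. The test recovered 61 of 94 genes changed by 2 and 93 of 94 changed by 4 on the log2 scale, with 1 false call. The spread of the real sums was not simulated, so this gives no rate of false calls for them. Sub-groups came from 1500 variable genes, 15 components, 15 neighbours and resolution 0.6 (leidenalg 0.10.2).

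Named genes were those of the rule and label, up to 10 per direction with the largest change among genes past the threshold at a mean of at least 10 CPM, the 10 per direction with the largest counting bound at 50 CPM or more between preparations, the 25 leading genes, and listed genes that passed. A few genes are not reported here. Genes set against the trefoil-positive cells, and some from sub-groups, were chosen after their values were seen. The alternatives changed the cell filters, each limit, doublets, mesothelial UMIs, the normalization, the count filter and the libraries used. Intervals cover counting error only, at 95%, and a gene at 0 was set to 3 UMIs per library for a bound.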

Additional observations from a re-analysis of the deposited data

How the results depend on the processing

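For the line comparison, the counts of genes higher and lower were 877 and 535 with no filter on low counts, 298 and 143 with DESeq2, and 138 and 45 without the preparation term. Leaving out each library in turn, which also drops the preparation term, gave 50 to 733 and 25 to 447. With no UMI of Msln, Wt1, Lrrn4, Gpm6a or Muc16 allowed, 3171 genes could be tested and 0 and 6 passed (378 with an unadjusted p under 0.05). Without barcodes of more UMIs in another library the counts were 472 and 210, and with gated cells of at least 3000 UMIs 443 and 246, both chosen after seeing the data. For preparation, the counts higher and lower in enriched were 10 and 7 with RLE size factors, 172 and 151 with no filter, 41 and 63 with DESeq2, 0 and 0 without the line term (313 unadjusted), 27 and 25 at 10% mitochondrial UMIs, 27 and 18 at Vim 40, 10 and 7 at collagens under 5, and 0 and 2 with no mesothelial UMI. Leaving out each library, and with it the line term, gave 0 to 113 and 0 to 214.

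The members' share in enriched was 8.16% at Vim 40, 9.98% at keratins 20 and 4.93% with no mesothelial UMI. In whole it was 7.61% at 1000 UMIs and 500 genes, 7.31% at Vim 40, 5.92% with no mesothelial UMI and 6.43% at 3000 UMIs. For the same gate in KPC-4545 the share in enriched moved from 43.9% to 36.1% at Vim 40, 31.7% at keratins 20, 51.6% at 10% mitochondrial UMIs, 41.4% at collagens under 5, 46.5% without barcodes of more UMIs in another library and 9.81% with no mesothelial UMI. In whole it moved from 5.60% to 2.80% at Vim 40 and 2.99% with no mesothelial UMI. With no mesothelial UMI, 930 and 1091 genes were 2-fold higher in enriched and in whole members, and the log2 ratio of Sprr2h became -1.17.

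Named line differences kept direction and side in 1143 cases, lost significance in 341, gained it in 6 and turned in 11. Those that turned were Sprr1a (-0.48 without the preparation term, -1.41 to 2.51 over the fits without 1 library), Cdkn2a (0.20 with no mesothelial UMI, -0.53 to 0.26 without 1 library), Epcam (-0.15 to 8.99) and S100a14 (-0.29 to 4.83), both lowest without whole KPC-3403, Ccl7 (-6.15 to 3.31, highest without enriched KPC-4545) and Plat (-0.31 with no mesothelial UMI). For preparation 233 were kept, 89 lost significance and 3 turned, all without enriched KPC-4545: Ccl2 (-0.54 to 8.81 over the fits without 1 library), Crabp2 (-0.69 to 6.55) and Sod3 (-0.24 to 5.74). The causes were not tested. The labels carry no replicate numbers to pair samples by; the preparation term sets the lines against each other within each preparation. Depth limits the whole libraries most, since 10 cells held 50.5% and 81.7% of their UMIs.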
